A study of Homo sapiens with 6 samples.

Results

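The genes described here encode the heat shock proteins, their J-domain co-chaperones and the heat shock factors. They were taken by symbol, as every gene whose symbol starts with HSP90, with HSPA, HSPB, HSPD, HSPE or HSPH and a digit, with DNAJA, DNAJB or DNAJC and a digit, or with HSF and a digit. This gave 76 of the 19775 genes measured, 71 of them protein-coding and 5 annotated as noncoding transcripts that carry a chaperone gene's symbol. The 76 genes had 176 probe sets with a single symbol, and the probe set with the highest mean of log2(intensity + 16) over the arrays stood for its gene. HSF2, HSPA1A, HSPA1B and HSPA8 lacked a probe set annotated to them alone, so HSF2 was not analysed here, and the other genes of that group appear below only through probe sets that carry several symbols.

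The cells were K562, an established human line grown from a chronic myeloid leukaemia that carries the BCR-ABL1 fusion. In the calactin group, K562 cells were labelled as given 0.15 mM calactin for 12 h (3 arrays), and in the untreated group, K562 cells got no calactin (3 arrays). Calactin is a cardenolide, a plant steroid of the kind that inhibits the sodium pump. Each group holds samples of 1 cell line that the labels call biological replicates, so p-values measure the spread among these arrays only. The title of the series speaks of damaged DNA and modified histones, and the chaperone genes were compared here between the same 2 groups.

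Heat shock proteins hold, fold and sort other proteins. HSP70 proteins bind short unfolded stretches in a cycle driven by ATP, J-domain proteins bring them their clients and speed up that cycle, HSP110 proteins exchange the nucleotide, and HSP90 acts later on signalling proteins. The cytosol, the endoplasmic reticulum (ER) and the mitochondria each have their own set, and HSF1 is the factor that switches on the cytosolic set after heat, whereas the ER set answers to the unfolded protein response.

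Array medians lay between 31.2 and 32.1 in calactin arrays and between 33.1 and 34.4 in untreated arrays, in the deposited linear intensity units. Correlations of log2 values were 0.989 to 0.992 within groups and 0.974 to 0.979 between groups. The array's control probe set for the middle of 28S ribosomal RNA read 7119 to 13172 in calactin arrays and 529 to 1051 in untreated arrays, and the part of this difference in the results below was not tested. Of 7 K562 and erythroid markers, 6 were measured, and all 6 lay above the median signal, among them the embryonic globin gene HBE1 at 13173 in calactin arrays and 13552 in untreated arrays. The erythroid factors LMO2, GATA1 and NFE2 were lower and TAL1 was higher with calactin. Of 12 markers of other cells, 11 were measured and 6 were at or below the median signal of genes (73.4 units), but CD3D averaged 1703 in calactin arrays and 2330 in untreated arrays, EPCAM 2547 and 2953, COL1A1 818 and 787, LYZ 679 and 806, and COL1A2 121 and 227, and CD3D and COL1A2 were called lower. The part of these signals in the results was not tested.

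With calactin, cytosolic chaperone genes were called lower more often than higher, mitochondrial ones were called lower or not at all, and the ER set held calls in both directions. Of the 76 genes, 8 rose (10.5%, against 4.93% of all genes) and 20 fell (26.3%, against 16.5% of all genes) in limma's test with an adjusted p under 0.05 over all genes. In either direction 36.8% were called, against 21.4% of all genes. All 3 calactin arrays lay above all 3 untreated arrays for 10 of the 76 genes (13.2%, against 10.3% of all genes) and below them for 30 (39.5%, against 24.4% of all genes). Of the chaperone genes above the median signal, they lay above for 21.3% and below for 51.1%, against 14.9% and 39.5% of all genes above it. Genes with more signal were called more often. Of the 47 chaperone genes above the median signal of genes, 17.0% rose and 38.3% fell, against 9.10% and 29.6% of all genes above it. The median log2 change was -0.10 over the 76 genes and -0.06 over all genes. No chaperone gene rose by 1 or more on the log2 scale, and 6 fell by that much. Arrays of bulk RNA cannot tell fewer cells of a kind from less RNA per cell. Of the 28 called genes, DNAJB1, DNAJB4, DNAJC12, DNAJC14 and DNAJC18 stayed called in every alternative other than poly-A spike scaling, which moves the log2 change of every gene up by 0.53, and with the arrays scaled to the hybridisation spikes 4 chaperone genes rose and 7 fell.

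Among the protein-coding genes, 42 act in the cytosol or nucleus, 14 in the ER, 8 in mitochondria and 7 in another or no assigned place. In the cytosol and nucleus 3 rose (7.14%) and 13 fell (31.0%), with a median of -0.15. In the ER 5 rose (35.7%) and 3 fell (21.4%), with a median of 0.00. In mitochondria 0 rose and 3 fell (37.5%), with a median of -0.33. Of all genes, 4.93% rose and 16.5% fell, with a median of -0.06. Above the median signal lie 23 of the cytosolic, 13 of the ER and 7 of the mitochondrial genes. Of these, in the same order, 13.0%, 38.5% and 0% rose and 47.8%, 23.1% and 42.9% fell. Their medians were -0.24, 0.05 and -0.32. Of all genes above the median signal, 9.10% rose and 29.6% fell, with a median of -0.14. All 8 mitochondrial genes had negative log2 changes, as did 58.1% of all genes and 64.1% of those above the median signal. Relative to the median of all genes, the medians of all cytosolic, ER and mitochondrial chaperone genes were -0.09, 0.06 and -0.27. Over all 23 settings tried they ran from -0.13 to -0.02, from 0.01 to 0.18 and from -0.34 to -0.18. Settings that shift all genes of an array alike, or that change only the variance model or the block, cannot move these differences. The unadjusted ER median itself changed sign when an array was left out (0.11 without untreated replicate 3, -0.07 without untreated replicate 2). The difference between compartments was not tested.

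**Figure D1:**
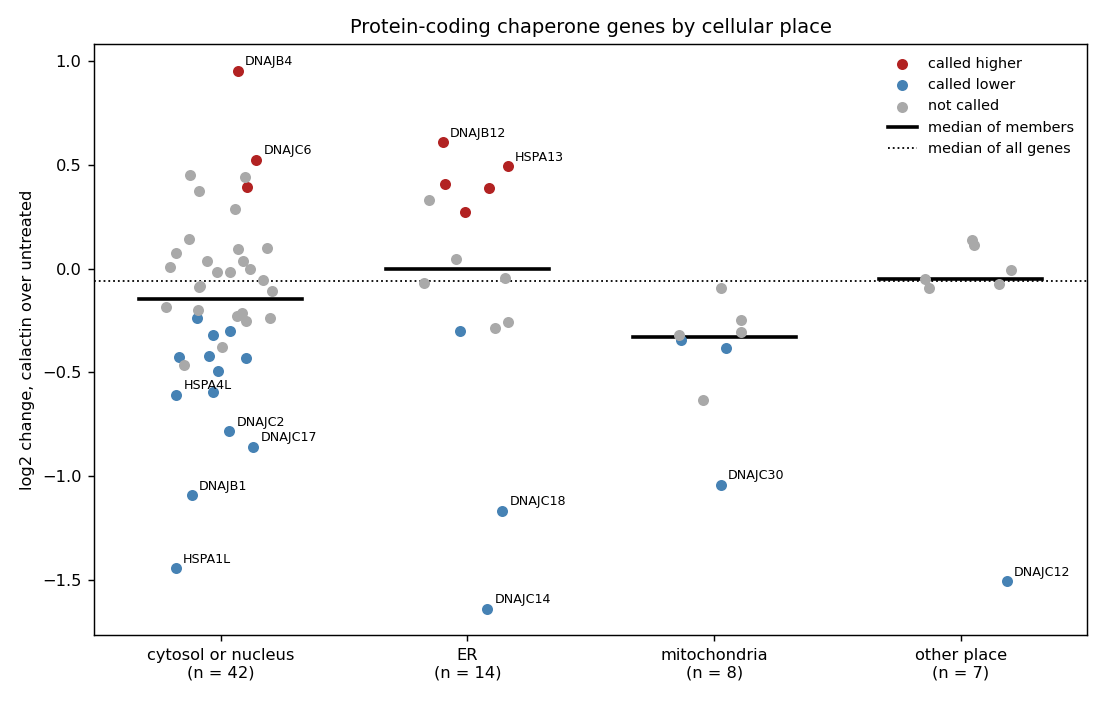
Log2 change of calactin over untreated arrays on the log2(intensity + 16) scale (y axis) for each protein-coding chaperone gene, grouped by cellular place (x axis); red points were called higher, blue lower and grey were not called, bars are group medians and the dotted line is the median of all genes. All 8 mitochondrial points lie below 0, and the ER holds 5 of the 8 genes called higher; scaling to the poly-A spikes moves every point up by the same 0.53.

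HSF1, the factor that switches on the cytosolic heat shock genes, was not called (log2 change 0.08 ± 0.16, SE, limma adjusted p = 0.83). Its intensity was 1052, 1472 and 1381 in calactin arrays and 1169, 1512 and 1029 in untreated arrays. The groups overlapped, and replicate 2 was the highest array of each. HSF4 and HSF5, other members of the factor family, lay below 8 units on every array and were not called.

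DNAJB1, the J-domain partner of stress-induced cytosolic HSP70 and a classic HSF1 target, fell most among the genes above the median signal assigned here to the cytosol or nucleus. DNAJC12, counted with another place, fell further (log2 change -1.51). DNAJB1 had 741, 805 and 686 units in calactin arrays, against 1618, 1673 and 1513 in untreated arrays. Every calactin array lay at less than 806 units and every untreated array above 1500. The log2 change was -1.09 ± 0.09 (SE, n = 3 each, limma adjusted p = 0.00012), and its other probe set gave -1.13. DNAJB1 stayed called in 21 of 22 alternative settings, all but poly-A spike scaling without a replicate block.

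The inducible HSP70 genes HSPA1A and HSPA1B are near copies, and 3 probe sets carried both symbols, 1 of them with HSPA1L as well. All 3 were lower with calactin, at log2 changes of -0.58, -0.73 and -0.50 (limma adjusted p = 0.017, 0.0053 and 0.0053 over all probe sets that carry a symbol). The brightest had 3921, 3154 and 3629 units in calactin arrays and 5811, 4355 and 6001 in untreated arrays, and the groups did not overlap. These probe sets cannot tell the genes apart. The 4 probe sets that carried HSPA8, the constitutive cytosolic HSP70, together with small nucleolar RNA symbols averaged 10533 to 12973 units in calactin arrays and 12241 to 14303 in untreated arrays. Their log2 changes lay between -0.22 and -0.14, and none was called (adjusted p between 0.052 and 0.13).

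The HSP110 proteins restart HSP70 by exchanging its nucleotide. HSPH1, the heat-inducible one, fell by 0.49 ± 0.13 on the log2 scale (SE, limma adjusted p = 0.023), with 1328, 1253 and 1481 units in calactin arrays and 2007, 1577 and 2194 in untreated arrays. All 3 HSPH1 probe sets were called lower. HSPA4L, a relative of it, fell by 0.61 ± 0.14 (adjusted p = 0.013), with 251, 306 and 307 units in calactin arrays and 423, 399 and 522 in untreated arrays. HSPA4, the constitutive member, had 3738, 3827 and 4034 units in calactin arrays and 4278, 4168 and 5039 in untreated arrays. It was not called (-0.21, limma adjusted p = 0.12), although its groups did not overlap, and it was called with the replicate number as a block (adjusted p = 0.033). HSPH1 missed the threshold when calactin replicate 1, calactin replicate 2, untreated replicate 1 or untreated replicate 3 was left out, and HSPA4L when calactin replicate 1 or untreated replicate 3 was.

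HSPA1L, an HSP70 relative expressed mainly in testis, fell by 1.44 ± 0.20 on the log2 scale (limma adjusted p = 0.0011) but was dim, with 19.8, 14.9 and 17.5 units in calactin arrays and 91.4, 53.7 and 83.6 in untreated arrays. Its calactin arrays lay below the median signal of genes, its other, also dim probe set was not called, at 0.44, and the mean of both was not called either. HSPA6, a strictly heat-inducible HSP70, was not called on the brighter of its probe sets, with 308, 429 and 269 units in calactin arrays and 306, 347 and 272 in untreated arrays. Its dimmer probe set averaged 34.6 units in calactin arrays and 145 in untreated arrays, a log2 change of -1.68, and was called lower. HSPA2, HSPA12A, HSPA12B and HSPA14 were not called on the probe sets that stood for them.

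Both cytosolic HSP90 genes fell by small amounts. HSP90AA1, the stress-inducible form, had 9885, 8470 and 9617 units in calactin arrays and 12021, 10666 and 12181 in untreated arrays, a log2 change of -0.32 ± 0.08 (SE, limma adjusted p = 0.019). HSP90AB1, the constitutive form, had 10381, 9799 and 10210 units in calactin arrays and 11973, 11261 and 12631 in untreated arrays, a log2 change of -0.24 ± 0.06 (limma adjusted p = 0.020). In neither gene did the groups overlap, and 3 of 4 HSP90AA1 probe sets and 3 of 3 HSP90AB1 probe sets were called lower. HSP90AA1 missed the threshold when calactin replicate 2, untreated replicate 1 or untreated replicate 3 was left out, and HSP90AB1 when any of these or calactin replicate 3 was. Both had positive values (0.22 and 0.30) under poly-A spike scaling with a replicate block.

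Small heat shock proteins hold unfolded proteins without ATP. Of the 7 with an HSPB symbol, HSPB1 alone lay above the median signal of genes in K562 cells. It had 4047, 3430 and 3725 units in calactin arrays and 5300, 4713 and 5006 in untreated arrays. HSPB1 fell by 0.42 ± 0.08 on the log2 scale (SE, limma adjusted p = 0.0050), and the groups did not overlap; its value was 0.11 under poly-A spike scaling with a replicate block. HSPB2, a muscle small heat shock protein, was also called lower (-0.59, adjusted p = 0.018), but at 3.25, 3.95 and 6.93 units in calactin arrays and 15.1, 17.1 and 13.3 in untreated arrays, and not without calactin replicate 1 or 2. The other HSPB genes were dim and not called.

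**Figure D2:**
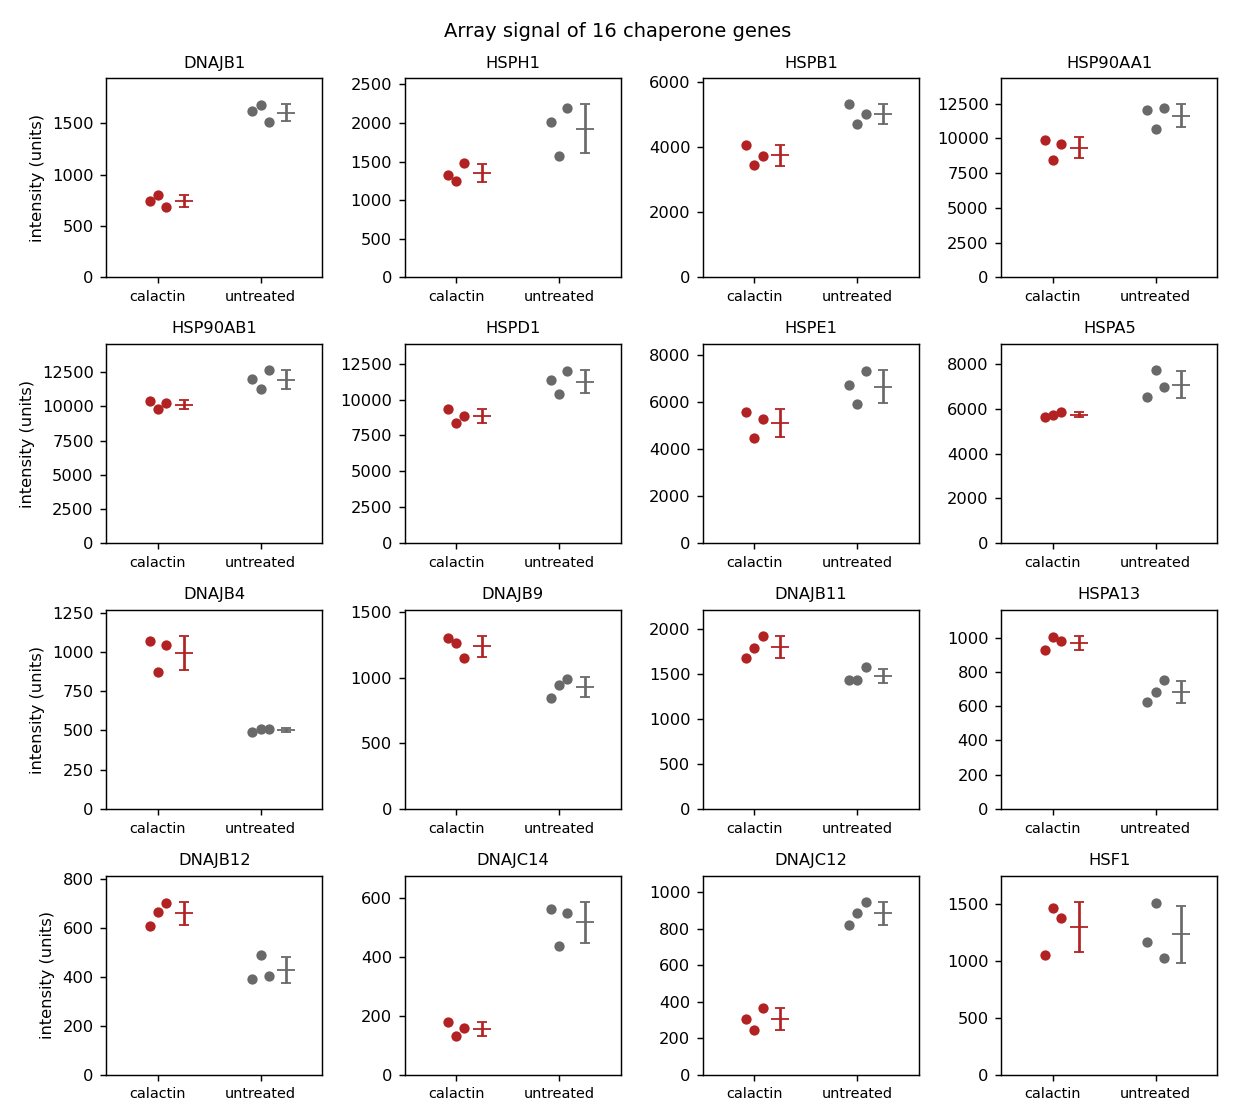
Deposited intensity in linear units (y axes, each from 0) on each array of the calactin group (red, left) and the untreated group (dark grey, right) for selected chaperone genes; points are replicates 1, 2 and 3 from left to right, and the bar beside them is the mean with its SD (n = 3). The groups do not overlap in any panel but that of HSF1.

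Among the 20 cytosolic and nuclear J-domain genes, 3 rose (15.0%) and 6 fell (30.0%). Of all genes, 4.93% rose and 16.5% fell. The 9 called genes all lie among the 14 of these 20 above the median signal. Of all genes above the median signal, 9.10% rose and 29.6% fell. DNAJB4, a cytosolic partner of HSP70, rose most of the whole family, by 0.95 ± 0.10 on the log2 scale (SE, limma adjusted p = 0.00033). It had 1067, 871 and 1043 units in calactin arrays and 490, 512 and 510 in untreated arrays. Every calactin array of DNAJB4 was at least 871 units and no untreated array passed 512, and both of its probe sets were called higher. DNAJB4 and DNAJB1 belong to the same subfamily and differed in direction, and DNAJB4 was called in 21 of 22 alternatives.

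DNAJC6, the auxilin that lets HSC70 strip clathrin from vesicles, rose by 0.52 ± 0.09 on the log2 scale (SE, limma adjusted p = 0.0028), with 3018, 3438 and 2809 units in calactin arrays and 2030, 2161 and 2219 in untreated arrays. The arrays of the groups did not overlap for DNAJC6, but the mean with its other probe set, which averaged 6.81 units in calactin arrays and 12.6 in untreated arrays, was not called. DNAJB6, which keeps polyglutamine proteins from aggregating, rose by 0.39 ± 0.08 (adjusted p = 0.0079) on its single-symbol probe set, with 1891, 1972 and 2125 units in calactin arrays and 1467, 1467 and 1621 in untreated arrays. A pair of further probe sets carried DNAJB6 together with TMEM135 and went the other way, with log2 changes of -0.66 (918 units on average in calactin arrays and 1446 in untreated arrays, adjusted p = 0.0034) and -0.36 (1471 and 1891 units, adjusted p = 0.066). The direction for DNAJB6 thus depended on the probe set, and which transcripts each probe set reads was not analysed here.

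The cytosolic and nuclear J-domain genes that fell include DNAJC17, a nuclear protein linked to splicing, and DNAJC2, which sits on ribosomes and helps to fold nascent chains. DNAJC17 had 71.0, 61.9 and 67.7 units in calactin arrays and 137, 139 and 126 in untreated arrays, a log2 change of -0.86 ± 0.14 (SE, limma adjusted p = 0.0025). DNAJC2 had 1062, 1320 and 1439 units in calactin arrays and 2050, 2098 and 2420 in untreated arrays, a log2 change of -0.78 ± 0.12 (SE, limma adjusted p = 0.0019). Neither gene's groups overlapped, and DNAJC2 was not called as the mean of its probe sets. DNAJC21, a ribosome biogenesis factor, fell by 0.43, DNAJC7, a co-chaperone of HSP70 and HSP90, by 0.42 and DNAJA2, a general HSP70 partner, by 0.30. These smaller falls were not called without several of the arrays, DNAJC21 without replicate 2 or 3 of the calactin group or untreated replicate 3, DNAJC7 without calactin replicate 1, calactin replicate 2, untreated replicate 1 or untreated replicate 3, and DNAJA2 without any 1 of the arrays other than untreated replicate 2. All 3 changed sign under poly-A spike scaling, and DNAJC7 also when its probe sets were averaged.

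DNAJA1, a general cytosolic partner of HSP70, was not called. It had 4013, 4362 and 4783 units in calactin arrays and 4828, 4757 and 6010 in untreated arrays. Calactin replicate 3 lay above untreated replicate 2, so the groups overlapped. Its log2 change was -0.24 ± 0.10 (SE, limma adjusted p = 0.16), and with the replicate number as a block it was called (adjusted p = 0.021). DNAJC12, a co-chaperone of the aromatic amino acid hydroxylases that was counted among the genes with another place, fell by 1.51 ± 0.15 on the log2 scale (SE, limma adjusted p = 0.00022). It had 304, 243 and 367 units in calactin arrays and 821, 886 and 948 in untreated arrays, far apart, and 2 of its 3 probe sets were called lower.

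The ER genes include calls in both directions. HSPA5, also named BiP, the HSP70 of the ER, had 5619, 5725 and 5844 units in calactin arrays and 6541, 7728 and 6964 in untreated arrays. HSPA5 fell by 0.30 ± 0.07 on the log2 scale (SE, limma adjusted p = 0.015), and both of its probe sets were called lower. HSP90B1, the HSP90 of the ER, had 1841, 2184 and 2249 units in calactin arrays and 2299, 2836 and 2526 in untreated arrays. It was not called (-0.29 ± 0.11, limma adjusted p = 0.094), although its groups did not overlap, and it was called with the replicate number as a block (adjusted p = 0.012). A pair of probe sets that carry HSP90B1 with a microRNA symbol gave -0.22 (adjusted p = 0.044) and -0.19 (adjusted p = 0.075). HSPA5 was not called without calactin replicate 1 or 2, and its value was 0.23 under poly-A spike scaling with a replicate block.

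Some J-domain partners of HSPA5 rose. DNAJB9, also named ERdj4, a gene induced by the unfolded protein response, had 1306, 1263 and 1152 units in calactin arrays and 849, 947 and 995 in untreated arrays, a log2 change of 0.41 ± 0.09 (SE, limma adjusted p = 0.013). All 3 of its probe sets were called higher. DNAJB11, also named ERdj3, which binds clients in the lumen together with HSPA5, had 1677, 1784 and 1920 units in calactin arrays and 1433, 1432 and 1572 in untreated arrays, a log2 change of 0.27 ± 0.08 (SE, limma adjusted p = 0.044). The groups did not overlap for either gene, but the DNAJB9 call was lost without calactin replicate 1 or 2 and that of DNAJB11 without any 1 of the 6 arrays. DNAJC10, also named ERdj5, a disulfide reductase that works with HSPA5, had 568, 464 and 534 units in calactin arrays and 623, 581 and 675 in untreated arrays. Its groups did not overlap, but it was not called (-0.26 ± 0.11, limma adjusted p = 0.15), while the replicate block called it lower (adjusted p = 0.046), as did the fit of a dim further probe set, at -0.81. DNAJC3, which inhibits the stress kinase PERK in some settings, had 904, 733 and 821 units in calactin arrays and 581, 708 and 660 in untreated arrays. It was not called (0.33 ± 0.11, limma adjusted p = 0.076), although its groups did not overlap. It was called higher after quantile normalization (limma adjusted p = 0.022) and with the arrays centred on their medians (limma adjusted p = 0.036).

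HSPA13, a small HSP70 relative of the microsomes, rose by 0.49 ± 0.10 on the log2 scale (SE, limma adjusted p = 0.0060), with 925, 1001 and 981 units in calactin arrays and 621, 684 and 749 in untreated arrays. DNAJB12, an ER membrane J-domain protein that faces the cytosol and works with HSC70 in degradation, rose by 0.61 ± 0.11 (adjusted p = 0.0053), with 610, 665 and 704 units in calactin arrays and 392, 489 and 406 in untreated arrays. The other 3 DNAJB12 probe sets had positive log2 changes of 0.13 to 0.28 and were not called. DNAJC16, an ER J-domain protein, rose by 0.39 (adjusted p = 0.032), with 310, 331 and 305 units in calactin arrays and 227, 240 and 246 in untreated arrays. The DNAJC16 call was lost without any 1 of the arrays other than untreated replicate 2.

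A further pair of ER membrane J-domain genes fell by 1 or more on the log2 scale. DNAJC14 had 178, 131 and 158 units in calactin arrays and 564, 437 and 550 in untreated arrays, a log2 change of -1.64 ± 0.15 (SE, limma adjusted p = 0.00018). This was the largest fall among the 76 genes, and both DNAJC14 probe sets were called lower. DNAJC18 had 51.3, 36.9 and 51.4 units in calactin arrays and 111, 123 and 137 in untreated arrays, a log2 change of -1.16 ± 0.17 (SE, limma adjusted p = 0.0013), while its other probe sets were not called, at -0.34 and 0.20. Both genes stayed called in 21 of 22 alternatives.

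**Figure D3:**
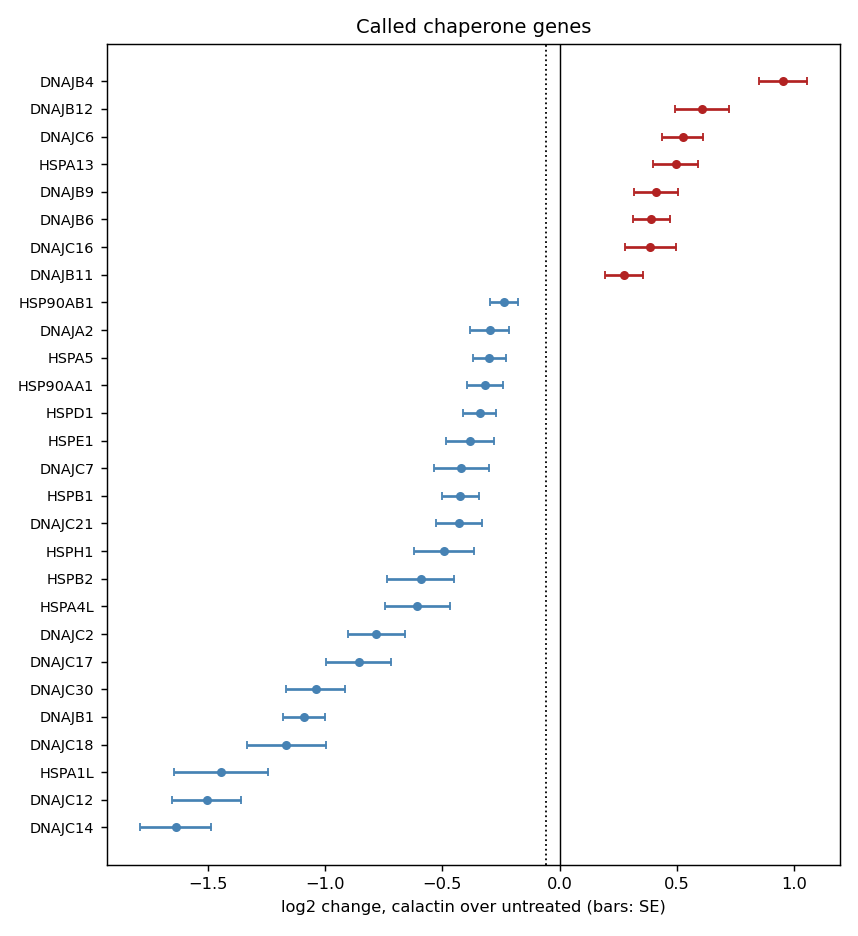
Log2 change of calactin over untreated arrays (x axis, log2(intensity + 16) scale) for each of the 28 called chaperone genes (rows), with bars of 1 SE; red was called higher and blue lower, the solid line is 0 and the dotted line the median of all genes. The falls reach -1.64 (DNAJC14) and the rises 0.95 (DNAJB4); under poly-A spike scaling every point lies 0.53 further right, which moves falls smaller than that past 0.

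Promoter sequences were read for the elements that HSF1 and the unfolded protein response use, because these are the known switches of the cytosolic and ER sets. RefSeq windows on GRCh38.p14 from 250 bases before to 50 bases after each annotated start matched 67 of the 76 genes by gene identifier, and a gene with several starts held a motif where any of its windows did. On either strand, a heat shock element of 3 units (GAANNTTCNNGAA) stood in 6 of the 67 genes (8.96%), against 0.608% of all 27305 genes with windows. The ER stress element (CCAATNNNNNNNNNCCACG) stood in 2 (2.99%), against 0.0916% of all genes. The shorter pairs of heat shock units overlap the longer element, and GAANNTTC stood in 14 of the 67 genes (20.9%), against 8.21% of all genes, and TTCNNGAA in 12 (17.9%), against 9.46%. The full matches are shown with the fixed letters of the element in capitals, each on the strand where it reads that way, to let the spacing be compared.
DNAJA1, heat shock element: GAActTTCcaGAA
DNAJB6, heat shock element: GAAccTTCgcGAA
HSP90AA1, heat shock element: GAAccTTCcgGAA
HSP90AB1, first, heat shock element: GAAtcTTCcaGAA
HSP90AB1, second, heat shock element: GAAgcTTCcaGAA
HSPA6, heat shock element: GAActTTCgcGAA
HSPD1, first, heat shock element: GAAagTTCtgGAA
HSPD1, second, heat shock element: GAActTTCcaGAA
HSPA5, ER stress element: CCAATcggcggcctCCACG
HSP90B1, first, ER stress element: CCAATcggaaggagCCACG
HSP90B1, second, ER stress element: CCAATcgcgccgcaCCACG

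The matches lie, in the same order, at chr9:33025276-33025288 (plus strand, DNAJA1), chr7:157336873-157336885 (plus strand, DNAJB6), chr14:102087120-102087132 (plus strand, HSP90AA1), chr6:44247778-44247790 (minus strand, HSP90AB1), chr6:44247831-44247843 (minus strand, HSP90AB1), chr1:161524466-161524478 (minus strand, HSPA6), chr2:197500068-197500080 (minus strand, HSPD1), chr2:197500073-197500085 (plus strand, HSPD1), chr9:125241391-125241409 (minus strand, HSPA5), chr12:103930216-103930234 (plus strand, HSP90B1) and chr12:103930321-103930339 (minus strand, HSP90B1). The matches in HSPD1 overlap each other on opposite strands. Of the genes with a full heat shock element, HSP90AA1, HSP90AB1 and HSPD1 fell, DNAJB6 rose on its own probe set, and DNAJA1 and HSPA6 were not called. Of the genes with an ER stress element, HSPA5 fell and HSP90B1 was not called. DNAJB1 and DNAJC6 held the shorter GAANNTTC and DNAJB4 the shorter TTCNNGAA, and DNAJB9 held none of the motifs in these windows. A match is a string of letters and does not show which factor was bound.

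Whole windows are given for the called genes with a full element and the largest changes, 5′ to 3′ on the strand of the gene with the element in capitals. The part of these elements in the changes was not tested. The DNAJB6 window (chr7:157336754-157337053, plus strand) holds its element from 131 bases before the start. In the HSPD1 window (chr2:197499791-197500090, minus strand) the overlapping matches begin 245 bases before the start. The HSP90AA1 element begins 88 bases before the start (chr14:102086995-102087294, minus strand), and that of HSPA5 begins 66 bases before it (chr9:125241294-125241593, minus strand). For HSPD1 and HSP90AA1 the start is one inside the annotated gene, which reaches to chr2:197500274 and chr14:102139749. Their elements thus lie within the gene.
DNAJB6 promoter: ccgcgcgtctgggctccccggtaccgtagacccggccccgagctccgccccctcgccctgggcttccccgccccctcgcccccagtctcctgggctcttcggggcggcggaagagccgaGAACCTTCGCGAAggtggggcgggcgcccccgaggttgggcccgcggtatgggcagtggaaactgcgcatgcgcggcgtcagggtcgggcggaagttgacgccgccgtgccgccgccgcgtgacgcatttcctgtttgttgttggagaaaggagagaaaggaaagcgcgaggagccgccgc
HSPD1 promoter: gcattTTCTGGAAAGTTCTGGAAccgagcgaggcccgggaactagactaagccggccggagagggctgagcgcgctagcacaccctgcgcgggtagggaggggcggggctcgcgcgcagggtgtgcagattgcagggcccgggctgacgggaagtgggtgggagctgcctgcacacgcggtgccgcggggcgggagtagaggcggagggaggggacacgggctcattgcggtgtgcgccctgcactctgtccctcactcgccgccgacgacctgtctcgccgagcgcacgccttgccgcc
HSP90AA1 promoter: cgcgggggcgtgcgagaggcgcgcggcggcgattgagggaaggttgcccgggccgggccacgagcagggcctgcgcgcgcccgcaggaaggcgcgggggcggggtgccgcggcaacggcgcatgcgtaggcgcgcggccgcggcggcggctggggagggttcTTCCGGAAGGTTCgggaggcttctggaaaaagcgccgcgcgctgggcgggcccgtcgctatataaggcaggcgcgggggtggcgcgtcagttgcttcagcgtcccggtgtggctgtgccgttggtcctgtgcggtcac
HSPA5 promoter: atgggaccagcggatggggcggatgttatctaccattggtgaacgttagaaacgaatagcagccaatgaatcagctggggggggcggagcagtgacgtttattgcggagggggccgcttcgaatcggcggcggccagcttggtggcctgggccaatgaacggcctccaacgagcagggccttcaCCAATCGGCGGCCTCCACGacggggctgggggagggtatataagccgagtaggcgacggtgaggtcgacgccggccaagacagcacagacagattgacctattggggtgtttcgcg

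The mitochondrial genes were all on the lower side. HSPD1 and HSPE1 encode the HSP60 chaperonin and its HSP10 lid, which share a bidirectional promoter. HSPD1 had 9360, 8398 and 8828 units in calactin arrays and 11391, 10372 and 11959 in untreated arrays, a log2 change of -0.34 ± 0.07 (SE, limma adjusted p = 0.0077). HSPE1 had 5583, 4469 and 5277 units in calactin arrays and 6726, 5924 and 7318 in untreated arrays, a log2 change of -0.38 ± 0.10 (SE, limma adjusted p = 0.029). Neither gene's groups overlapped, and replicate 2 was the lowest array in each group for both. HSPE1 missed the threshold when calactin replicate 2, calactin replicate 3, untreated replicate 1 or untreated replicate 3 was left out, whereas HSPD1 stayed called without any 1 array. Both were positive (0.19 and 0.15) under poly-A spike scaling with a replicate block.

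DNAJC30, a mitochondrial J-domain protein tied to the respiratory chain, fell by 1.04 ± 0.13 on the log2 scale (SE, limma adjusted p = 0.00061). It had 129, 119 and 147 units in calactin arrays and 284, 303 and 274 in untreated arrays, and the mean with its other, dim probe sets was not called. HSPA9, the mitochondrial HSP70 also named mortalin, had 5156, 4377 and 4826 units in calactin arrays and 4935, 4842 and 5515 in untreated arrays. Its groups overlapped, and it was not called (-0.09 ± 0.08, limma adjusted p = 0.53), which makes it the 1 mitochondrial gene without separated groups. DNAJA3, DNAJC11, DNAJC15 and DNAJC19, J-domain proteins of the organelle's matrix and membranes, had log2 changes of -0.31, -0.32, -0.63 and -0.25, with limma adjusted p of 0.055, 0.057, 0.061 and 0.092. With the replicate number as a block all 4 were called lower (limma adjusted p of 0.035, 0.024, 0.021 and 0.033). In that fit 28 of the 76 genes were lower and 8 higher, and of all genes 20.2% were lower and 7.09% higher.

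Probe sets that share a gene sometimes differed. Of the 76 genes, 55 had several probe sets, and in none of these were 2 single-symbol probe sets called in opposite directions. In 8 all probe sets were called alike. For 7 genes that were not called, another probe set was: DNAJC9, a histone chaperone, had a log2 change of -0.09 on a probe set of 4026 units in calactin arrays and 4274 in untreated arrays, and of 1.0 on a dim one of 174 and 79.0 units that was called higher. HSPA14, HSPA9, HSPA6, DNAJC10, DNAJC11 and HSP90B1 each had a dimmer probe set called lower.

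**Figure D4:**
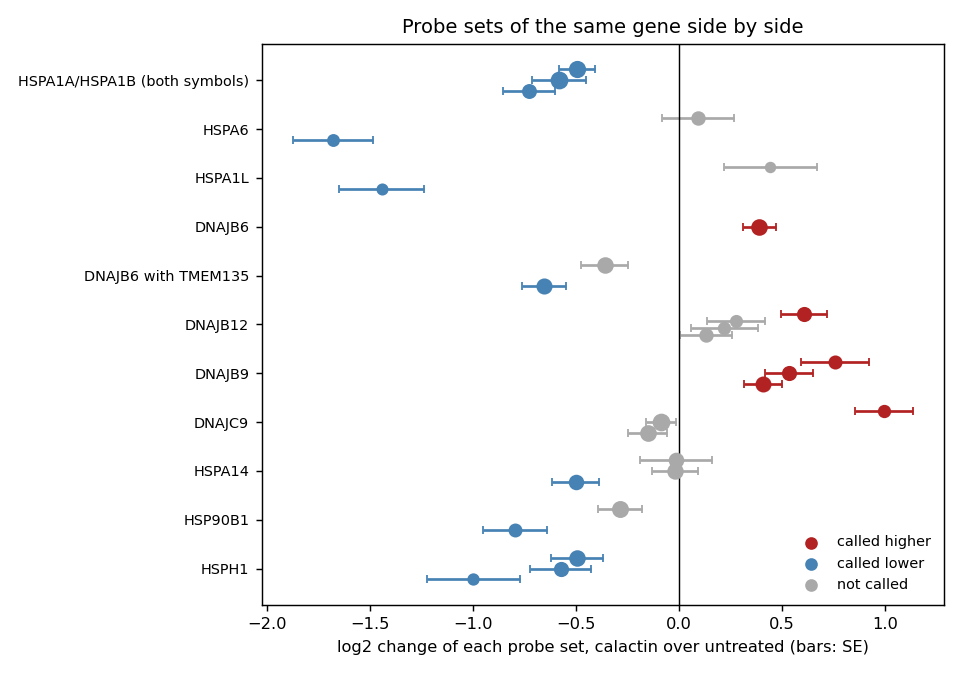
Log2 change of calactin over untreated arrays (x axis, log2(intensity + 16) scale) of each probe set of selected chaperone genes (rows), with bars of 1 SE and larger points for brighter probe sets. Red was called higher, blue lower and grey was not called. Calls come from the fit over all single-symbol probe sets. For probe sets with several symbols they come from the fit over all probe sets with a symbol. The HSPA1A and HSPA1B probe sets all lie between -0.73 and -0.50, all DNAJB9 probe sets are above 0, and DNAJB6 is at 0.39 on its own probe set and at -0.66 and -0.36 on those shared with TMEM135.

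The genes that work with these chaperones (pathway genes) were described from 5 lists that hold 64 measured genes, some of them in more than 1 list. Of the 64, 1 rose and 25 fell, and all but ERO1B, HMOX1 and SPG7 lie above the median signal, where 9.10% of all genes rose and 29.6% fell with a median log2 change of -0.14. With hybridisation spike scaling the number called was 5, against 26. Of 7 measured subunits of TRiC, the cytosolic chaperonin that folds actin and tubulin, 0 rose and 5 fell (71.4%, against 29.6% of all genes above the median signal), with a median log2 change of -0.37. CCT2 averaged 6514 units in calactin arrays and 9364 in untreated arrays (-0.52 ± 0.06, SE, limma adjusted p = 0.00041), and CCT3, CCT6A and CCT8 fell by 0.56, 0.42 and 0.37. Of 21 cofactors of HSP70 and HSP90, 0 rose and 9 fell (42.9%, against the same 29.6%), with a median of -0.27. They include the nucleotide exchange factor BAG5 (450 units in calactin arrays and 855 in untreated arrays, -0.90), the HSP90 co-chaperone SUGT1 (1281 and 2219, -0.79), CACYBP (3250 and 5177, -0.67) and the immunophilin FKBP5 (2087 and 3149, -0.59).

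Of 14 known HSF1 targets outside the symbol pattern, 0 rose and 8 fell (57.1%, against 29.6% of all genes above the median signal, where 13 of the 14 lie). The median was -0.37. Of the 8 that fell, CACYBP, FKBP4 and CHORDC1 are also counted in the cofactor list and CCT4 among the TRiC subunits. All 14 had negative log2 changes, as did 64.1% of all genes above the median signal. SERPINH1, also named HSP47, the collagen chaperone of the ER, averaged 318 units in calactin arrays and 864 in untreated arrays and fell by 1.39 ± 0.10 (SE, limma adjusted p = 9.0e-05). IER5 fell by 0.48 and CCT4 by 0.36, whereas BAG3, a co-chaperone that heat induces, averaged 2020 units in calactin arrays and 2074 in untreated arrays and was not called (-0.04 ± 0.09, limma adjusted p = 0.84). Under poly-A spike scaling with a replicate block CCT2, CCT4, CCT6A, CCT8 and IER5 had values above 0, and SERPINH1, BAG5, SUGT1, FKBP5, CCT3 and CACYBP stayed below it.

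Of 16 other ER folding factors, 1 rose (6.25%) and 3 fell (18.8%), with a median of -0.13. These shares are below the 9.10% and 29.6% of all genes above the median signal, where 15 of the 16 lie. Calreticulin, CALR, a lectin chaperone, averaged 4843 units in calactin arrays and 4212 in untreated arrays and rose by 0.20 ± 0.06 (SE, limma adjusted p = 0.037), a call lost without any 1 array other than untreated replicate 2. MANF, a secreted ER stress protein, fell by 0.77, SDF2L1, which works with ERdj3, by 0.49, and the disulfide isomerase PDIA4 by 0.46. HYOU1 and HERPUD1, both induced by the unfolded protein response, were not called, at -0.13 and 0.31. Of 14 mitochondrial folding factors and proteases, 0 rose and 4 fell (28.6%), with a median of -0.19, and this share of falls is at the background of 29.6% above the median signal, where 13 of the 14 lie. PAM16, a part of the import motor, fell by 0.69, HSCB, the J-domain protein of iron-sulphur cluster assembly, by 0.62, and the proteases HTRA2 and CLPP by 0.42 each. CLPP missed the threshold when calactin replicate 1, calactin replicate 3 or untreated replicate 1 was left out, and PDIA4, SDF2L1, HTRA2 and CLPP were above 0 under poly-A spike scaling with a replicate block.

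The 5 noncoding transcripts, DNAJB8-AS1, DNAJC3-DT, DNAJC27-AS1, DNAJC9-AS1 and HSPA2-AS1, were all dim and none was called. DNAJC9-AS1 had the highest log2 change of them, 0.78, with 57.8, 51.4 and 56.9 units in calactin arrays and 57.1, 17.2 and 13.7 in untreated arrays, so the groups overlapped through untreated replicate 1. HSF2BP, which matches the symbol pattern as a binding partner of HSF2, lay below 8 units on every array.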

How the data were processed

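RNA from 3 calactin-treated and 3 untreated K562 cultures was measured on 1-colour arrays of 54675 probe sets. The deposited values are linear intensities as the authors processed them, while how probe sets were summarised and arrays scaled is not stated by labels or headers. Of the probe sets, 41091 carry 1 gene symbol in the platform annotation. The probe set with the highest mean of log2 values stood for each of 19775 genes. From the deposited intensity, log2(intensity + 16) was computed and tested with limma 3.58.1 in R 4.3.3 (lmFit, eBayes with a variance trend, two-sided), with Benjamini-Hochberg adjustment over all genes and a threshold of 0.05. Probe sets were also fitted one by one. This leaves 4 residual degrees of freedom, so precision is set by how few arrays there are. A fold change on this scale understates that of dim genes. Standard deviations are over 3 arrays a group. Standard errors are limma's for the difference between the groups, from the residual variance of both groups after eBayes moderation across genes.

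The replicate numbers of the labels pair the arrays: over 9887 genes above the median signal, same-numbered arrays deviated together from their group means (r = 0.54 for number 1, 0.41 for number 2, 0.34 for number 3). Differently numbered ones had r from -0.41 to -0.01. Deviations sum to 0 within a group, so positive same-numbered values push the others below 0, and these add no separate evidence. A fit with the number as a block was an alternative, beside other scalings, pseudocounts, filters, probe set choices, variance models and each array left out. The choice of the probe set by mean intensity was added after seeing the data. The members, lists, tests and alternatives were chosen with earlier results of these data known. The genes named with values were 15 set by name where measured, up to 10 of the largest rises and falls among called genes whose groups did not overlap, and up to 4 genes per list. A few others, singled out by name, were chosen after their values were seen. Promoter sequences are from RefSeq. The fit was tested on simulated data. Plots were drawn with matplotlib 3.10.9.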

Additional observations from a re-analysis of the deposited data

How the results depend on the processing

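In settings that do not rescale the arrays, falls stayed more frequent than rises. The counts changed, and many single genes lost their call in at least 1 of these settings. With the replicate number as a block (replicate block), 8 chaperone genes rose and 28 fell, against 8 and 20 without it. Besides the 8 further falls, the block changed no call among them. Calls also became more frequent among all genes, with 7.09% higher and 20.2% lower, against 4.93% and 16.5% without the block. Without a variance trend 12 fell, and of all genes 14.6% fell. Leaving out each array in turn gave 5 to 7 rises and 12 to 22 falls, an ER median from -0.070 to 0.11 and a mitochondrial median from -0.41 to -0.28. Of all genes, 3.26% to 5.13% then rose and 12.1% to 15.3% fell. Replicates 1 and 2 alone gave 2 rises, 9 falls, 13 called genes of the 5 pathway lists (26 with all arrays as deposited) and an ER median of 0.095. With these arrays 1.68% of all genes rose and 7.09% fell. The choice of the probe set by mean intensity, added after seeing the data, gave 8 and 20.

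Rescaling moved all genes together. The median of all genes was -0.06 as deposited, 0.02 after quantile normalization, 0.04 with hybridisation spike scaling and 0.47 with poly-A spike scaling. Quantile normalization gave medians of 0.14 for ER and -0.25 for mitochondrial genes, and the share of falls among all calls was 59.1%, against 77.0%. Hybridisation spike scaling gave 4 rises, 7 falls, 5 pathway genes and medians of 0.10 and -0.23, and with a replicate block 1 rise, 6 falls, 2 pathway genes and the same medians. Poly-A spike scaling gave cytosolic, ER and mitochondrial medians of 0.39, 0.53 and 0.20, with 29 rises and 6 falls under a replicate block and 0 rises, 0 falls and 0 pathway genes called without one. Of all genes, 9390 then rose and 1018 fell, so 9.78% of calls were falls. Under this scaling HSP90AA1 stood at 0.22, HSP90AB1 at 0.30, HSPA5 at 0.23, HSPB1 at 0.11, HSPD1 at 0.19, HSPE1 at 0.15 and HSPH1 at 0.040, and HSPA9 was called higher at 0.44 with the block; these values follow from the shift of every gene by 0.53. The poly-A spikes were far dimmer in replicate 3 of both groups, and the cause was not tested. Of 28 called chaperone genes, 5 were called in every alternative other than poly-A scaling: DNAJB1, DNAJB4, DNAJC12, DNAJC14 and DNAJC18. Genes below the median signal, such as HSPB2, are limited by signal over background.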
